A study of Mus musculus with 24 samples.

Results

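The 10 genes described here encode the core of the Polycomb repressive complexes: Ezh1, Ezh2, Eed, Suz12, Rbbp7, Rbbp4 and Jarid2 of complex 2, and Rnf2, Ring1 and Bmi1 of complex 1. They were taken by name, and all 10 were found among the 21887 protein-coding genes of the mm10 reference table. A gene was called marked in a library when at least 1 peak of N6-methyladenosine (m6A), a methyl mark on RNA adenosines, overlapped its body by 1 bp or more. All 10 were marked in at least 1 library, as were 9903 protein-coding genes, 45.2% of the table.

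Polycomb complex 2 methylates lysine 27 of histone H3 through its catalytic subunit EZH2 or EZH1, which needs EED and SUZ12 to be active. Complex 1 ubiquitinates histone H2A through RING1 or RNF2, and both complexes hold developmental genes silent. In the mouse, H3K27 methylation laid down in the growing oocyte is carried into the embryo and keeps the maternal copy of some genes silent. m6A on an mRNA is read by YTH-domain proteins and can change its stability and translation.

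m6A was mapped in C57BL/6N mice by antibody pull-down of sheared RNA from which ribosomal RNA had been depleted. The females were 8 weeks old and hormone-primed, and embryos were sired by males of that age. No altered allele is named for any group, and the isolation medium of the first stage contained IBMX, which holds oocytes in meiotic arrest. The 6 stages ran from germinal vesicle (GV) oocytes with a surrounded nucleolus through metaphase II (MII) oocytes and zygotes to the 2-cell, 8-cell and blastocyst embryo. There were 2 replicates of every stage, each of 49 to 110 pooled oocytes or embryos, and nothing in the labels says that they came from separate animals, so their spread may be technical. Times after the ovulating hormone hCG were 14 h for MII oocytes, 27 to 28 h for zygotes, 39 to 43 h for 2-cell embryos, 68 to 70 h for 8-cell embryos and 92 to 94 h for blastocysts, while GV oocytes came from follicles primed with PMSG alone. Every immunoprecipitated library, 12 in all, has its own peak list, and its matched input was not analysed here.

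The lists held 6914 (zygote replicate 1) to 11959 (GV oocyte replicate 2) peaks and marked 3025 to 5237 genes. Read depth is unknown. A missing peak can mean no methylation, too little RNA of that gene or too few reads, and these cannot be told apart. Markers of the labelled stages gave a partial check. Of 9 oocyte markers, 0 to 2 were marked in each embryonic library (2-cell, 8-cell, blastocyst) and 5 in each maternal one (GV, MII, zygote). Of 9 blastocyst markers, 6 or 7 were marked in each 8-cell and blastocyst library and 1 or 2 in each earlier one. Of 8 markers of 2-cell embryos, 5 were marked in each 2-cell library, but 3 and 6 in the 8-cell libraries, 2 in each blastocyst and each GV library, and 0 or 1 in the others, so this list did not single out the 2-cell stage. Of 8 cumulus and granulosa cell markers, 0 were marked in the embryonic libraries and 0 or 1 in the maternal ones. Zp1, Zp2 and Zp3, which define the oocyte's coat, had no peak in any library, so these lists do not show expression.

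Suz12 and Jarid2 were marked in all 12 libraries, a pattern of 8.36% of the marked genes. Bmi1 was marked in 10 libraries, Rnf2 in 5, Ezh1 in 4, Rbbp7 and Ring1 in 3 each, Ezh2 and Rbbp4 in 2 each, and Eed in 1. Between 2 (2-cell replicate 2) and 6 of the 10 genes were marked in a library, beside 30.5% to 52.9% of all marked genes. Together they held 81 peaks, which fell into 23 separate regions, 15 of them found in 2 or more libraries. Both catalytic subunits and EED, the subunit that binds methylated H3K27, were thus marked in few libraries, and their scaffold Suz12 in every one.

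**Figure D1:**
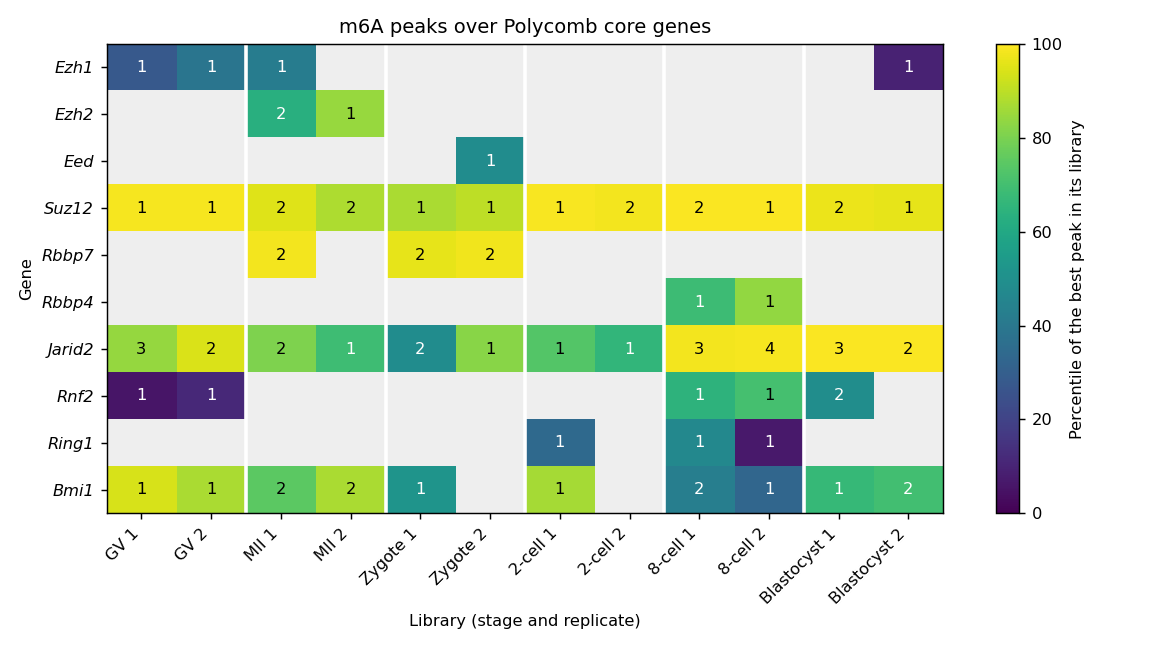
Number of m6A peaks over each gene (digits) in each of the 12 libraries, in developmental order; colour gives the percentile of the gene's strongest peak among the peaks of its own library, and grey means no peak. Suz12 and Jarid2 are filled in all 12 columns, while Ezh2 is filled in the 2 MII columns and Rbbp4 in the 2 8-cell columns.

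Suz12 encodes the scaffold subunit of complex 2 and held the peak with the highest fold of the group. Its main region lay on mm10 chromosome 11 at 80031705 to 80032455, within the gene (79993106 to 80034123, plus strand). The best summits of the 12 libraries fell within 42 bp of each other, 1949 to 1991 bp before the annotated gene end. Fold enrichment, as given by the authors, was 8.57 and 8.06 in GV, 4.96 and 3.70 in MII, and 5.72 and 4.45 in zygote libraries. It was 9.02 and 5.56 in 2-cell embryos, 11.8 and 14.7 in 8-cell embryos, and 11.1 and 11.3 in blastocysts. The 8-cell and blastocyst values lay above all others and the MII and zygote values were mostly the lowest, with 2-cell replicate 2 among them. The peak stood above its list's median fold in 8 of 12 libraries, failing in MII replicate 2, both zygotes and 2-cell replicate 2. Each list has its own depth, so these folds describe the peak within its list and were not tested between stages.

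By rank, the Suz12 peak was at the 96.3 to 99.6 percentile of its list in the embryonic libraries and at the 87.4 to 98.7 percentile in the maternal ones. Beside it, a narrow region at 80029827 to 80030030 held peaks in MII replicate 2, 8-cell replicate 1 and blastocyst replicate 1. A further one at 80013293 to 80013534 held peaks in MII replicate 1 and 2-cell replicate 2. Neither was found in both replicates of any stage.

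Jarid2 encodes a cofactor that recruits complex 2 to chromatin. It had the most peaks, 25, over the longest gene, 190870 bp on chromosome 13. A region at 44902149 to 44902904 was marked in all 12 libraries, as were 4.73% of the 14551 genic regions found in 2 or more libraries. Its strongest peak had a fold of 4.51 and 6.90 in GV, 5.23 and 5.28 in MII, and 3.72 and 5.34 in zygote libraries. The fold was 5.64 and 7.02 in 2-cell embryos, 6.69 and 5.41 in 8-cell embryos, and 7.58 and 8.68 in blastocysts. Most stages overlapped here, with zygote replicate 1 the lowest and both blastocyst libraries the highest. This region was not 1 simple peak. GV replicate 1 and zygote replicate 1 had separate peaks at its left and right side, and the 2-cell peaks covered the right side alone (44902448 to 44902758 and 44902555 to 44902788).

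A region of Jarid2 at 44906068 to 44906500 followed another course. It was marked in both GV, both 8-cell and both blastocyst libraries and in no MII, zygote or 2-cell library, as were 0.921% of the 14551 genic regions. The fold was 3.84 and 3.13 in GV oocytes, 8.00 and 4.49 in 8-cell embryos, and 8.12 and 6.50 in blastocysts. Its 6 summits lay within 23 bp. Jarid2 was therefore marked throughout at the region described first, but not at this one.

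**Figure D2:**
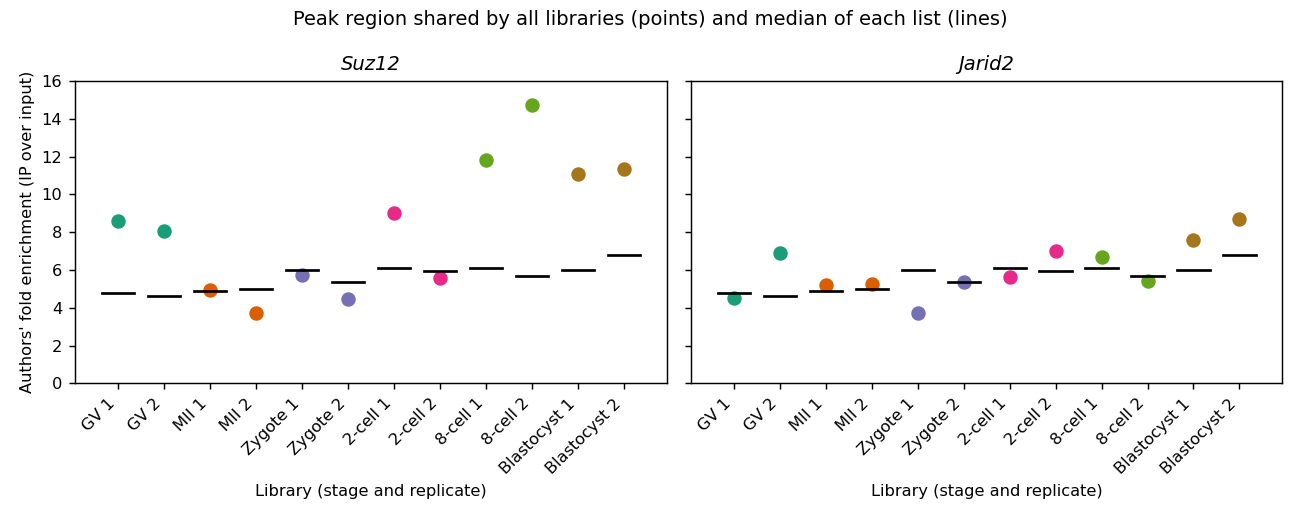
Fold enrichment of antibody-bound over input RNA, as given by the authors, for the strongest peak in the region of Suz12 (left) and Jarid2 (right) that is marked in all 12 libraries; points are libraries, coloured by stage, and black lines the median fold of each list. Suz12 ranges from 3.70 to 14.7 and lies above the line in 8 libraries, while Jarid2 stays between 3.72 and 8.68 and lies above it in 7.

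Near the start of Jarid2, a region at 44731311 to 44731723 was marked in both 8-cell libraries (fold 3.00 and 3.07) and in blastocyst replicate 1 (3.96), and in no maternal library. It began 41 bases into a second annotated transcript start at 44731271. Rbbp7 and Eed also had a peak at an annotated start, and the sequences there are shown because the promoter table reaches into these 3 peaks. They are from RefSeq, build GRCm38.p6 (the assembly of mm10), and capitals mark bases inside a peak. All 10 genes were in that table. The first is chrX:162760392-162760421 on the plus strand, the second chr7:89980947-89981006 on the minus strand and the third chr13:44731291-44731320 on the plus strand.
Rbbp7: gcctgCGCTCAGCTGCCTGGGCGGGCTGAG
Eed: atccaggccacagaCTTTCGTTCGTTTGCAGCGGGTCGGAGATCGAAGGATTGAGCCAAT
Jarid2: gttaaggggcttggaaaaaaGAGACTCGGC
The core GGAC of the usual m6A motif was searched on both strands. It had 0 matches in the 3 stretches, on the sense strand as GGAC or on the other as GTCC. At the same positions of all 32851 promoter windows, GGAC was present in 11.7% of 30-base stretches and 20.1% of 60-base stretches, and GTCC in 10.5% and 19.4%. The stretches cover only the edges of the peaks, so this says nothing of the bases under the summits.

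Rbbp7 encodes a histone-binding WD-repeat subunit shared with other chromatin complexes. It was marked in MII replicate 1 and both zygotes and in no other library. Its first region, on chromosome X at 162760397 to 162760668, had summits 192 to 196 bp after the annotated start. The fold was 4.75 in MII replicate 1 and 4.35 and 4.55 in the zygotes, at the 98.1, 96.2 and 97.7 percentiles of those lists. These were the highest ranks of the group outside Suz12 and Jarid2. All 3 folds were nevertheless below the medians of their lists (4.90, 5.99 and 5.34). A second region, at 162761380 to 162761587, was marked in the same 3 libraries with low folds of 1.77, 2.38 and 2.06. MII replicate 2 had no peak, so the MII replicates disagreed. The gene's far end overlaps Txlng, but all 6 peaks lay outside that overlap.

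Rbbp4, the close paralogue of Rbbp7, was marked in the 2 8-cell libraries alone, with folds of 7.04 and 11.2 on chromosome 4 at 129307885 to 129308828. Both peaks also lie within Sync, a gene that overlaps the end of Rbbp4, and the lists give no strand. Their gene of origin therefore cannot be told apart, and without peaks that touch several protein-coding genes Rbbp4 was marked in 0 libraries. The 2 paralogues were not marked together in any library.

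Ezh2, the main H3K27 methyltransferase of dividing cells, was marked in the 2 MII oocyte libraries only. This pattern was known when the gene was chosen and is given without a test. It was found in 24 genes, 0.242% of the marked ones. The shared region lay on chromosome 6 at 47545739 to 47545955, within the gene (47530274 to 47595270, minus strand), with summits 15564 to 15628 bp before its end. The start of the gene overlaps F830010H11Rik, but all 3 peaks lay outside that overlap. The fold was 2.15 in replicate 1 and 4.23 in replicate 2, below the medians of those lists (4.90 and 4.98). The peaks were nevertheless at the 63.0 and 84.7 percentiles by q-value. Replicate 1 had a further peak of 8.81-fold at 47577640 to 47577841.

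Ezh1, the paralogue that predominates in non-dividing cells, was marked in both GV libraries, MII replicate 1 and blastocyst replicate 2, at 3 different places. The GV peaks lay on chromosome 11 at 101192498 to 101192699, 1478 and 1480 bp before the gene end, with folds of 3.28 and 3.68. The MII peak, with a fold of 4.87, lay at 101217148 to 101217457, and the blastocyst peak, with 5.09, at 101192183 to 101192382. The 2 enzymes thus shared a single marked library, MII replicate 1. With the gene body extended by 1000 bp, Ezh1 was also marked in zygote replicate 2 and 2-cell replicate 1. With every list limited to its strongest 6914 peaks it was marked in MII replicate 1 alone, and with peaks at or above their library's median fold in 0 libraries.

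Eed had a single peak, in zygote replicate 2, on chromosome 7 at 89980529 to 89980992. It covered the annotated start and 16 bases before it, with a fold of 6.84 and at the 48.5 percentile. Zygote replicate 1 had none.

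Among complex 1 genes, Bmi1, the PCGF subunit of one canonical form, had the broadest pattern. It was marked in both libraries of GV, MII, 8-cell and blastocyst, and in replicate 1 alone of zygote and 2-cell. Of its 14 peaks on chromosome 2, 1 in 8-cell replicate 1, at 18677076 to 18677275, had its summit 149 bp after the gene start. That peak had a fold of 5.57, at the 16.4 percentile. The other peaks formed 2 main regions. One, at 18683853 to 18684772, was marked in both replicates of GV (fold 4.18 and 3.07), MII (1.65 and 1.9) and 8-cell (4.12 and 4.08). Both blastocyst libraries were marked there too, with strongest peaks of 7.21 and 7.19. At this place the MII values were the lowest and the blastocyst values the highest. The other, at 18683073 to 18683277, was marked in both MII libraries (1.65 and 2.07), zygote replicate 1 (1.67) and 2-cell replicate 1 (1.88). No GV, 8-cell or blastocyst library was marked there. Its 4 peaks began within 1 bp and ended within 5 bp of each other, and they ranked at the 51.8 to 87.4 percentiles despite their low folds.

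Rnf2 encodes RING1B, the ligase that carries most H2A ubiquitination in mouse embryonic stem cells. It was marked in both GV libraries, both 8-cell libraries and blastocyst replicate 1. The shared region lay on chromosome 1 at 151471206 to 151471542, with summits 1999 to 2031 bp before the gene end. The fold was 1.48 and 1.56 in GV oocytes, 3.97 and 3.95 in 8-cell embryos and 4.43 in blastocyst replicate 1. The GV peaks were weak, at the 5.57 and 11.6 percentiles of their lists, and were lost when each library was limited to its strongest 6914 peaks. Marks in both GV and both 8-cell libraries with none in MII, zygote or 2-cell libraries were found in 1.32% of marked genes.

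Ring1, the second ligase, was marked in 2-cell replicate 1 and both 8-cell libraries and in no maternal library. The fold was 6.91 in 2-cell replicate 1 and 8.38 and 3.54 in the 8-cell libraries, on chromosome 17 at 34021221 to 34021497. These peaks ranked at the 34.3, 46.5 and 6.79 percentiles. Both ligases were marked together in the 8-cell libraries alone.

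**Figure D3:**
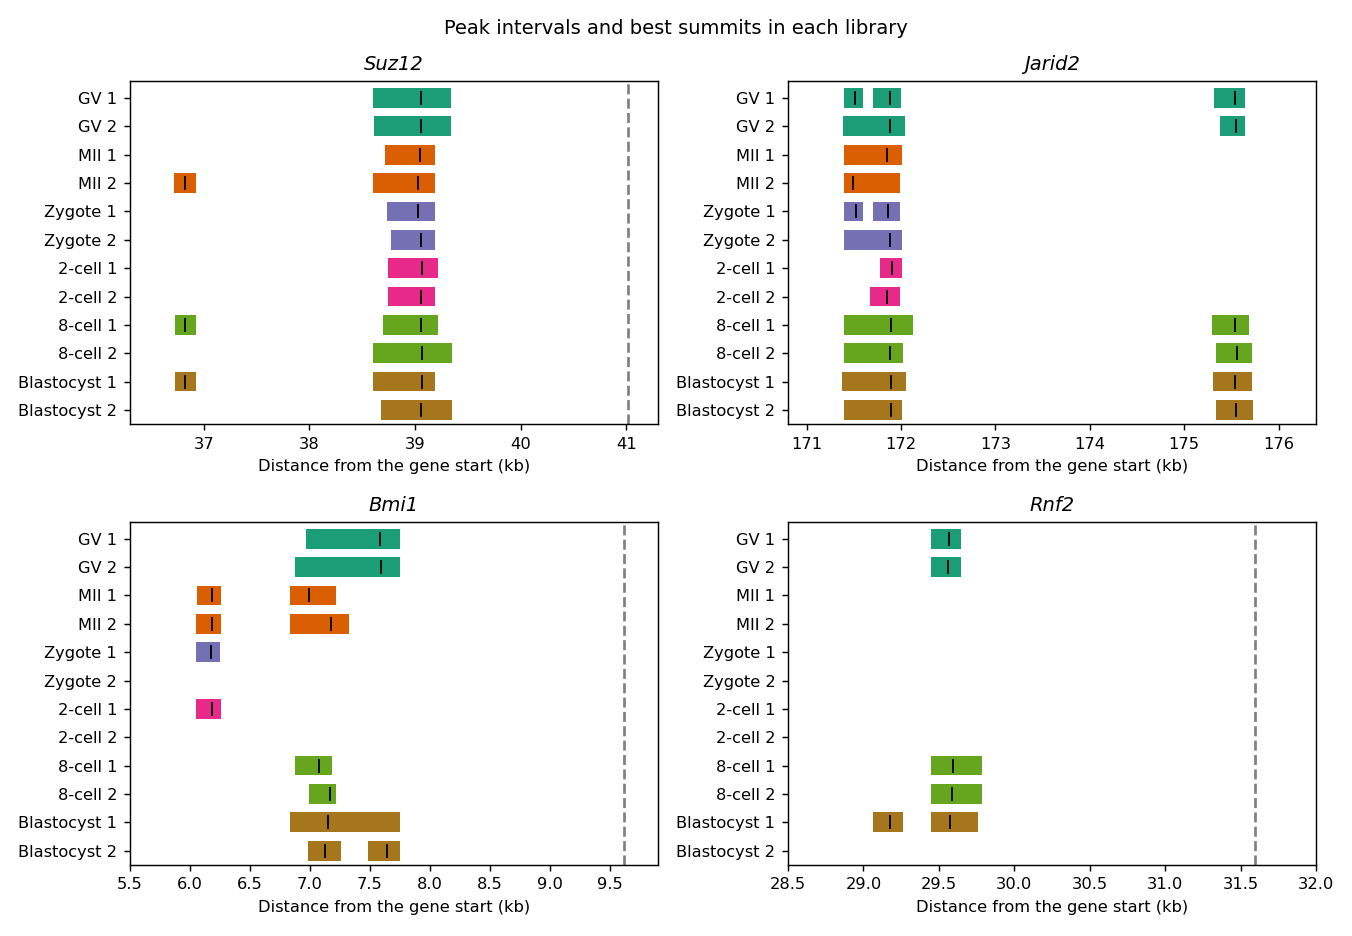
Peak intervals (bars) and best summits (black ticks) in each library, by distance from the annotated gene start in kb along the strand of the gene, for the end portion of Suz12, Jarid2, Bmi1 and Rnf2; dashed lines mark the annotated gene end where it falls in the panel. Suz12 summits line up in all 12 libraries, while the right-hand Jarid2 region and the Rnf2 region are empty in MII, zygote and 2-cell rows.

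The study's stages fall into a maternal phase, with RNA mostly inherited from the growing oocyte, and an embryonic phase after genome activation. Of the 10 genes, 0 were called between the phases. Marked libraries were counted in each phase and compared by Fisher's exact test. A gene needs marks in 5 to 7 of the 12 libraries to reach an unadjusted p of 0.05, and 2310 genes met this. Of those, 49.6% were called at a Benjamini-Hochberg adjusted p of 0.05, 498 for the embryonic phase (21.6%) and 647 for the maternal phase (28%). Only Rnf2 of the 10 was in that range, with 3 embryonic and 2 maternal libraries (Fisher's exact p = 1, adjusted p = 1), and the other 9 were not tested. Rbbp7 (0 embryonic and 3 maternal libraries), Ezh2 (0 and 2) and Eed (0 and 1) had maternal marks alone. Ring1 (3 and 0) and Rbbp4 (2 and 0) had embryonic marks alone, and Ezh1 had 1 and 3. The share of all marked genes with marks in a single phase is not given here. A gene marked in few libraries can fall in a single phase by its low count, so these patterns are descriptions only. The median difference over the 10 genes was 0 libraries, as it was over all marked genes. These p-values treat the 6 libraries of a phase as independent, although they are replicate pairs from 3 stages.

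Between neighbouring stages a gene was counted as gained when both later and neither earlier library was marked, and as lost in the reverse case. In MII against GV oocytes, Ezh2 was gained and Rnf2 lost, as were 3.33% and 8.74% of the marked genes. Ezh2 was lost in zygotes against MII oocytes (2.53% of genes lost), and 0 of the 10 were gained (0.666%). Rbbp7 was lost in 2-cell embryos against zygotes (7.94%), and 0 were gained (9.88%). Rbbp4 and Rnf2 were gained in 8-cell against 2-cell embryos (10.9%), with 0 lost (5.66%). Rbbp4 and Ring1 were lost in blastocysts against 8-cell embryos (4.29%), with 0 gained (4.79%). With 2 libraries against 2, no such count can be tested, and 1 or 2 genes in 10 is too few to set against these shares.

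The number of the 10 genes marked in both libraries was 5 for GV, 4 for MII, 3 for zygote, 2 for 2-cell, 6 for 8-cell and 3 for blastocyst. Over all marked genes the same share was lowest in zygotes (28.1%) and 2-cell embryos (28.4%) and highest in GV oocytes (45.9%). It was 35.8% in MII oocytes, 39.7% in 8-cell embryos and 37.3% in blastocysts. The 60 pairs of a gene and a stage comprised 23 with both replicates marked, 8 with 1 and 29 with none. Replicates disagreed in 25.8% of the pairs with any mark, against 32.4% over all marked genes. The GV and 8-cell replicates agreed on all 10 genes.

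Strand from the promoter table allowed the peaks to be placed along each gene. Of the 81 peaks, 40.7% had their best summit within 2500 bp before the gene end, in 6 of the 10 genes, and 13.6% within 2000 bp after the gene start, in 4. Among 72020 peaks of genes with a known strand the shares were 35.5% and 9.0%. A place marked in several libraries counts once for each of them, and the main Suz12 region alone gave 12 of the peaks near the end. The windows were chosen after the positions were seen. Suz12, Rnf2, Ring1, Bmi1, Ezh1 and Rbbp4 had peaks near the end, and Rbbp7, Eed, Jarid2 and Bmi1 near the start. The median width was 310 bp and the median fold 4.51, against 279 bp and 5.25 over all such peaks.

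Likeness to other genes was measured as the Pearson correlation of the best-peak percentile over the 12 libraries, with 0 where unmarked. Values near 1 come mostly from sharing the same few marked libraries, and all genes share these libraries and their depth. Ezh2 was closest to Necab2 (r = 1.00), Myrip (1.00) and Ndufs4 (1.00). Rbbp7 was closest to Bub1b, a mitotic checkpoint kinase (1.00), Dctn1, a dynactin subunit (0.99), and Mus81, a DNA nuclease (0.99). Rbbp4 was closest to Parvb, Rpl35a and Sat1 (each 1.00), all marked in the 2 8-cell libraries alone. For Rnf2 they were Rps6, Tmem64 and Nudt4 (each 0.99). These were marked in 0 maternal libraries each, so they do not share the weak GV marks of Rnf2. Rps6 was also marked in 2-cell replicate 2 and blastocyst replicate 2, where Rnf2 was not. Genes close to Ring1 included Tcf12 (0.99) and Abcb5 (0.98). Ezh1 was closest to Dipk1b (0.98), Gm6377 (0.97) and Slc2a9 (0.97). Bmi1 had no close match, with Dnajc11 (0.80), Nudcd3 (0.74) and Ice2 (0.74) the highest. The pattern of marked and unmarked libraries was exactly shared by 137 other genes for Rbbp4, 27 for Rnf2, 23 for Ezh2, 21 for Ring1, 14 for Rbbp7, 7 for Ezh1 and 4 for Bmi1.

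The other genes of the pathway were read from lists, with the same Fisher's exact test and adjustment over 2310 genes. Over all protein-coding genes 45.2% had a peak, and the median difference, embryonic minus maternal, was 0 libraries over those with one. Medians are given over the listed genes with a peak and then over all listed genes. Accessory subunits of complex 2 had a peak in 6 of 8 cases, 0 were in the tested range, and the median differences were 2 and 1 libraries. Partners of canonical complex 1, such as the chromobox proteins that bind H3K27 methylation, had one in 7 of 10, with 0 tested and medians of 1 and 0. Partners of variant complex 1, which acts without the chromobox proteins, had a peak in 13 of 14, with 3 tested and medians of 2 and 1. Enzymes that remove Polycomb marks had one in 8 of 8, with 3 tested and a median of 0 by either.

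Pcgf5, a variant complex 1 subunit, was the single call for the embryonic phase, with 5 embryonic and 0 maternal libraries (Fisher's exact test, adjusted p = 0.0306). Asxl3, a partner of the H2A deubiquitinase BAP1, was the single call for the maternal phase, with 0 and 5 (Fisher's exact test, adjusted p = 0.0306). Each came from a list with 3 tested genes. Over all 2310 tested genes, 21.6% were called for the embryonic and 28% for the maternal phase, so a single call does not set either list apart. Both calls were lost with peaks at or above the median score of all lists, with every list cut to an equal 6914 peaks, and with peaks at or above their library's median fold. They were also lost when the adjustment ran over every marked gene. Each of Pcgf5's 3 peak regions and each of Asxl3's 4 was found in at most 3 libraries, so the 5 marks of either gene do not share 1 place. Pcgf5 and Asxl3 also overlap other annotated genes, whose peaks cannot be told apart from theirs.

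The genes named next were chosen after their values were seen. Lcor and the variant complex 1 partners Pcgf3, Kdm2b, Bcorl1, Mga and Auts2 were marked in all 12 libraries. So were the deubiquitinases Usp16 and Mysm1, the BAP1 partner Asxl1 and the H3K27 demethylase Kdm6b. Marks in all 12 libraries were found in 8.36% of all marked genes. Lcor, Kdm2b, Mga, Auts2, Usp16, Mysm1 and Kdm6b overlap other annotated genes, whose peaks cannot be told apart from theirs. The same holds for Ezhip, Cbx7 and Phc2, named below. Kdm6a, the other H3K27 demethylase, was marked in both GV, both 8-cell and both blastocyst libraries and in no other, close to the pattern of Rnf2 (Fisher's exact test, adjusted p = 0.698). Ezhip, an inhibitor of complex 2 that is active in the germ line, was marked in all 6 maternal libraries, both 2-cell libraries and blastocyst replicate 1. Cbx7 (4 embryonic and 0 maternal libraries), Cbx8, Pcgf2 and Epop (3 and 0 each) had embryonic marks alone, and Phc2 (0 and 2) had GV marks alone. For these too, the share of all marked genes with marks in a single phase is not given.

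**Figure D4:**
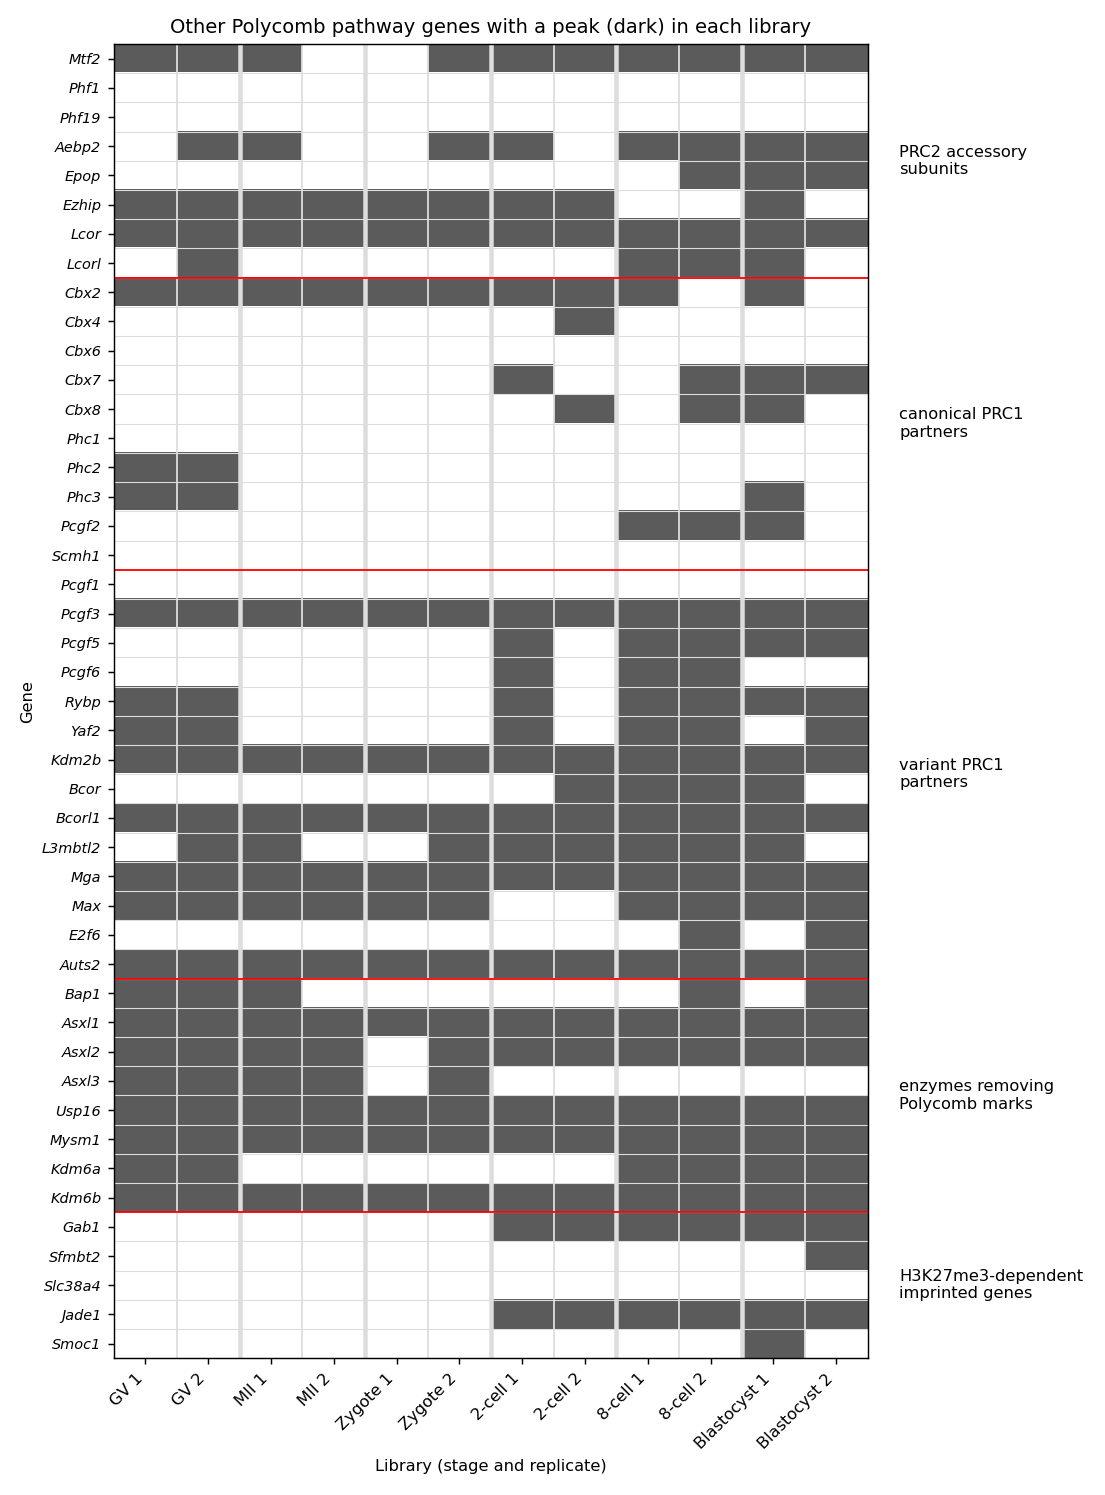
Genes of the wider Polycomb pathway (rows, grouped by list and separated by red lines) with at least 1 m6A peak (dark) in each of the 12 libraries (columns, in developmental order). Of the 13 variant complex 1 partners with a peak, 5 are dark in every column, and of the 7 canonical ones 0, beside 8.36% of all marked genes. The bottom group, described under the other observations, is empty in the 6 maternal columns.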

How the data were processed

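Per the submitters' processing notes, reads were handled with MACS2 2.1.2, HISAT2 2.1.0, bedtools 2.28.0, SAMtools 1.9, cutadapt 1.8.1, deepTools 3.2.0 and FastQC 0.11.8 on mm10, and no settings are given there. By the deposited peak names, the authors called peaks separately for every library, with its own input as control. Each deposited line holds the authors' score (in 99.999% of peaks the −log10 q-value times 10, rounded down), a fold enrichment (ratio), and the −log10 p-value and q-value. Summits sharing an interval were collapsed (143579 lines to 113764 peaks of 200 to 3754 bp), keeping the best q-value, whose rank in its list gives the percentile.

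Gene bodies came from RefSeq GRCm38.p6 (mm10 coordinates), and strand from its promoter table (17492 genes). No exon annotation or genome was used, so exons, introns, UTRs and motifs under peaks were not analysed. Marks were compared by two-sided Fisher's exact tests in SciPy 1.17.1, and checked on simulated data. The members and lists were chosen with earlier results of these data known. Named were all 10 members, up to 4 called genes per list and direction, and the 3 genes most like each member marked in 2 to 10 libraries, of which 1 is not reported here.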

Additional observations from a re-analysis of the deposited data

Results flagged for a closer look

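In 17 groups of 6 libraries of 1 phase, the strongest-peak percentile of each gene and the number of marked genes per library were searched for a library far from the other 5, and 2 were found. The search would pick about 1 in 20 groups by chance for continuous values, but a gene marked in 1 library of a phase is picked by construction, so that rate does not apply here. Blastocyst replicate 2 was the only embryonic library with a peak in Ezh1, at the 9.76 percentile against 0 (no peak) in the other embryonic libraries. Zygote replicate 2 was the only maternal library with a peak in Eed, at the 48.5 percentile against 0 in the others. Both rest on a single peak that the other replicate of the stage does not have.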

How the results depend on the processing

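None of the 10 members was called under any of the 18 settings that recompute marks. Under the main setting only 1 of the 10 was in the tested range, so most could not have been called there. Differences in marked libraries, embryonic minus maternal, kept their sign or became 0 for 7 members, and ranged from -1 to 2 for Suz12, -1 to 1 for Jarid2 and -3 to 2 for Bmi1. The counts over all genes moved more. With peaks at or above the median score of all lists, 190 genes were called for the embryonic and 712 for the maternal phase; with equal peak numbers, 510 and 515; with peaks at or above their library's median fold, 225 embryonic and 344 maternal; adjusted over every marked gene, 245 and 274. Leaving out 1 library gave 501 to 815 embryonic and 675 to 909 maternal calls, the highest without 2-cell replicate 1 (815) and replicate 2 (769), with more genes in the tested range. Members marked in both GV libraries numbered 3 under the score limit and 3 with equal peak numbers. Under the fold limit both libraries marked 1 member in GV, 1 in MII, 0 in zygote, 0 in 2-cell, 2 in 8-cell and 3 in blastocyst. The cause was not tested. With a replicate block the counts were 498 and 647, as without it. Replicate numbers did not pair the libraries: of 15 correlations between stages, 1 exceeded 0.1 (range -0.30 to 0.14). Depth is unknown, which limits every absent mark.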

Other observations

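In the mouse, oocyte H3K27 methylation silences the maternal copy of 5 listed protein-coding genes. Of these, 4 had a peak and 2 were in the tested range. Both of the 2 were called for the embryonic phase, as were 21.6% of the 2310 genes tested. Gab1, a signalling adaptor, and Jade1, a subunit of a histone acetyltransferase complex, were marked in 6 embryonic and 0 maternal libraries each (Fisher's exact test, Benjamini-Hochberg adjusted p = 0.00963 each). The Gab1 call was lost with peaks at or above the median score of all lists; the Jade1 call held under the 18 settings that recompute marks. Jade1 carried a region on chromosome 3 at 41613268 to 41614567 with peaks in all 6 embryonic libraries, with folds of 5.57 to 20.9. Gab1 had 2 regions on chromosome 8. One, at 80800179 to 80800507, was marked in both 2-cell and both 8-cell libraries, and the other, at 80788668 to 80788934, in both 8-cell and both blastocyst libraries. Sfmbt2 and Smoc1 had a peak in 1 blastocyst library each and Slc38a4 in none. Gab1, Sfmbt2 and Smoc1 overlap other annotated genes, whose peaks cannot be told apart from theirs.

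Xist, the non-coding RNA of X inactivation and also under this control, had 6 and 5 peaks in 8-cell embryos, 3 and 5 in blastocysts and 0 in the 8 earlier libraries. A region at chromosome X, 103466005 to 103466736, had folds of 13.1 to 17.1 in those 4 libraries. Tsix, transcribed on the opposite strand, spans the whole of Xist in the reference table, and the lists give no strand, so their peaks cannot be told apart.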
